A study of Mus musculus with 6 samples.

Results

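The genes described here encode enzymes that make or remove reactive oxygen species (ROS) in the heart, together with a few proteins that bind metals or switch such enzymes on. They were taken from a list of 34 gene symbols, and every probe set that the platform annotation lists with one of these symbols alone was used. Of the 34 genes, 31 were found, on 34 of the 35556 probe sets of the array, and Prdx5, Prdx6 and Ucp2 were not analysed here. Expression was measured in heart RNA of male mice aged 3 months on 6 Affymetrix Mouse Gene 1.0 ST arrays, of which 3 were labelled WT and 3 VAChT KDHOM, and none of the animals was treated. VAChT KDHOM mice are homozygous for an allele that lowers the vesicular acetylcholine transporter (gene Slc18a3) in the whole animal and so reduces cholinergic tone. The strain label of both genotypes is C57BL/6, while the methods describe a mixed background with few rounds of backcrossing. The title of the series names ventricles, as the study does for its arrays, while the design text of the series names whole hearts. Each array held RNA pooled from 2 samples, so that the spread between arrays is a spread between pools. All values are log2 signals, and a difference is VAChT KDHOM minus WT on the log2 scale.

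Superoxide, which leaks from the respiratory chain and is made by NADPH oxidases, is turned into hydrogen peroxide by superoxide dismutases. Peroxide is then removed by catalase, by glutathione peroxidases and by peroxiredoxins. Glutathione and thioredoxin supply the electrons for this and are themselves reduced with NADPH. Many of these enzymes are induced by the transcription factor NRF2, the product of Nfe2l2, when the cell is under oxidative stress. Monoamine oxidases of the mitochondrial outer membrane make peroxide as they break down catecholamines and serotonin, which gives the heart a further source of ROS. The study measured mitochondrial superoxide in isolated cardiomyocytes with a fluorescent dye, and those measurements were not analysed here.

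Several arrays stood apart, and this bears on the results that follow. The targeted gene, Slc18a3, had signals of 7.31, 7.42 and 7.11 in WT and of 7.24, 6.77 and 7.58 in VAChT KDHOM, which overlap, so it gives no check of the labels here. Ogdhl, a mitochondrial oxoglutarate dehydrogenase-like gene, read 9.60 and 10.33 on WT 1 and WT 3 but 7.21 on WT 2, and 7.06 and 7.09 on VAChT KDHOM 1 and 3 but 10.17 on VAChT KDHOM 2. At this gene both arrays numbered 2 go against their labels, and results are therefore also given with both left out. As labelled, Ogdhl differed by -0.94 (limma unadjusted p = 0.391), or 1.918-fold, far short of the decrease the study lists for it. Whether the labels of these arrays were exchanged was not tested, and all differences here follow the labels as they stand.

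The array VAChT KDHOM 1 was low for very bright probe sets. The 60 probe sets with a mean signal above 14 read 0.99 lower on it at the median than on the mean of the other 5 arrays (-0.99), the 154 between 13 and 14 differed by -0.34 and the 459 between 12 and 13 by -0.18. Cardiomyocyte markers such as Tnnt2, troponin T, at 13.59 against 14.50 to 14.61 on the other 5, were among them. The array nevertheless held heart RNA by these markers, since the summed signal of the 7 cardiomyocyte markers was 16.10 on it and 16.88 to 16.98 on the others. Dimmer cardiomyocyte markers fell less, Ryr2 at 12.37 against 12.43 to 12.61 on the others and Myl2 at 13.21 against 13.41 to 13.60. Whether the array or the tissue lay behind the low signals was not tested. In whole tissue, fewer cells of a type and less RNA per cell cannot be told apart. Over all probe sets, the correlation between 2 arrays was 0.982 to 0.994.

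**Figure D1:**
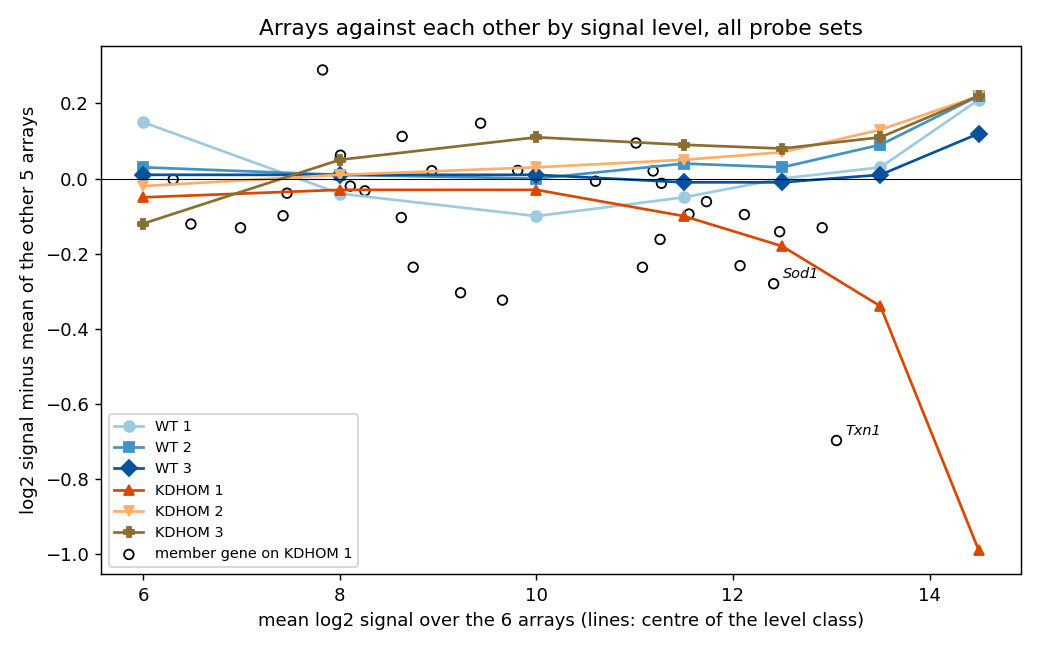
Median log2 signal of each array minus the mean of the other 5 arrays (vertical axis) by level class of all probe sets (horizontal axis, mean log2 signal), with the 31 genes on the array VAChT KDHOM 1 as open circles. The line of VAChT KDHOM 1 falls to -0.99 for probe sets above 14, and Txn1 lies at -0.70.

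Across the 31 genes, small differences in both directions were measured and none passed an adjusted p of 0.05 in limma (lowest adjusted p = 0.409), against 0.00281% of all probe sets. At an unadjusted p of 0.05, 3 of the 31 genes (9.68%) differed, against 11.7% of all probe sets, so the share was not above the background of these arrays. These were Hmox1 and Gclm, which read higher, and Txn1, which read lower. With each array centred on its median, all 3 genes called read higher, namely Hmox1, Gclm and Gclc, and Txn1 was no longer among them. Over all probe sets the balance turned the same way with centring, to 6.72% higher and 3.66% lower, from 3.93% higher and 7.81% lower. Quantile normalization of the deposited values left 1 gene called higher (Hmox1) and 1 lower (Txn1), against 4.33% and 5.98% of all probe sets. Txn1 alone also reached 1.3-fold, against 3.79% of all probe sets at both thresholds. Under the methods' own test, which estimates the spread of each gene by itself, Txnrd2 alone passed an unadjusted p of 0.05, against 8.67% of all probe sets, and no gene passed both thresholds, against 1.65%.

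The groups did not overlap at 4 genes, Gclc and Txnrd2 on the higher side and Txn1 and Ncf1 on the lower, which is 12.9% of the 31 genes against 19.2% of all probe sets (6.25% higher and 12.9% lower). With median centring the split was 5 genes higher, namely Gclc, Gclm, Hmox1, Nqo1 and Txnrd2, and 1 lower, Txn1, against 11.6% and 7.37% of all probe sets. The median difference was 0.04 (20 genes above 0 and 11 below), and that of all probe sets was -0.02. Over 17 genes the 95% interval of the difference lay within 1.3-fold in either direction, and over 27 within 1.5-fold. These intervals bound changes in signal between the groups as labelled. Among the 17 are Nox4 and Maoa, whose signals were close to background, so their narrow intervals cannot bound a change in RNA.

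**Figure D2:**
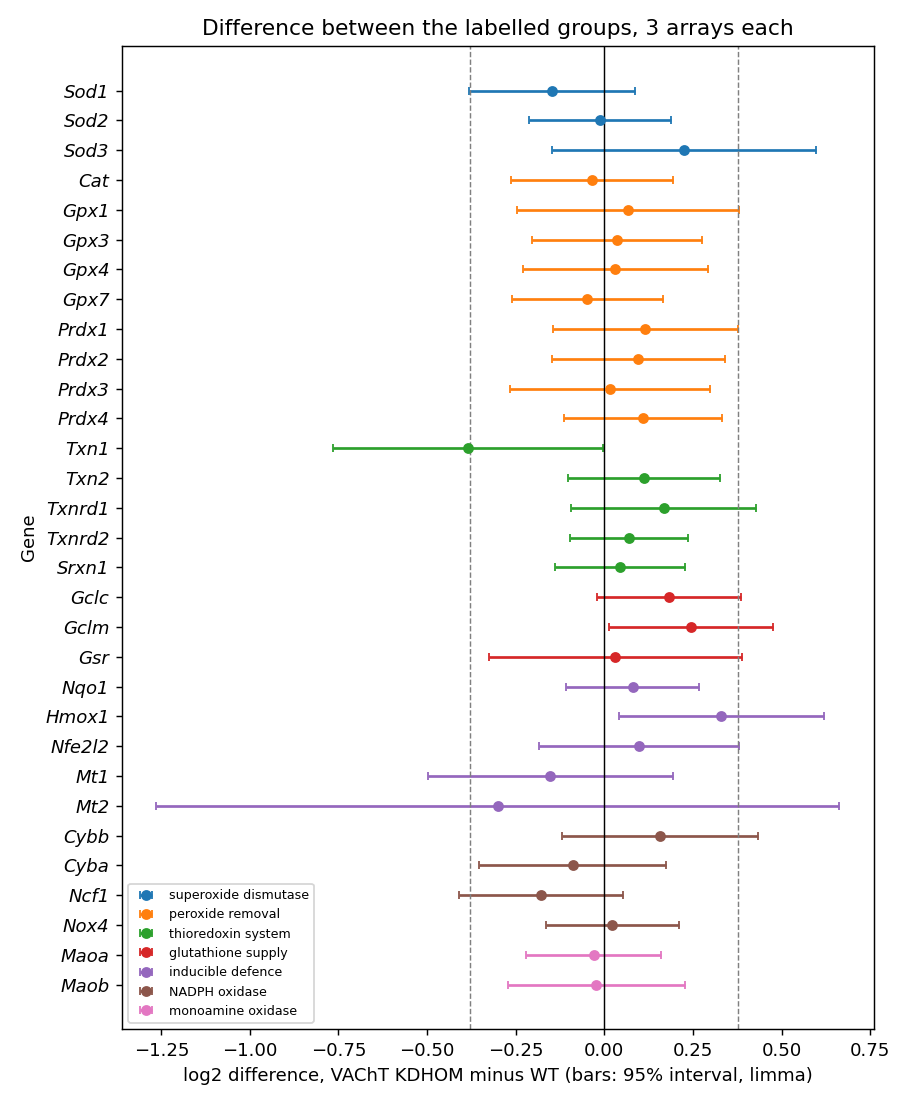
Difference in log2 signal, VAChT KDHOM minus WT, for the 31 genes by role, with the 95% interval from limma (3 arrays in each group), and dashed lines at 1.3-fold. Most intervals include 0, and the widest is that of Mt2, from -1.26 to 0.66.

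The genes also moved with single arrays. The array VAChT KDHOM 3 held the highest value of 16 genes and the lowest of none, VAChT KDHOM 1 the highest of none and the lowest of 10, and WT 1 the lowest of 10. Of the 13 genes with a mean signal above 11, 6 were lowest on VAChT KDHOM 1, compared with 4 of the other 18. Without VAChT KDHOM 1 the median difference was 0.09 and the only gene at an unadjusted p of 0.05 was Gpx1, and without VAChT KDHOM 3 the median was -0.001.

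**Figure D3:**
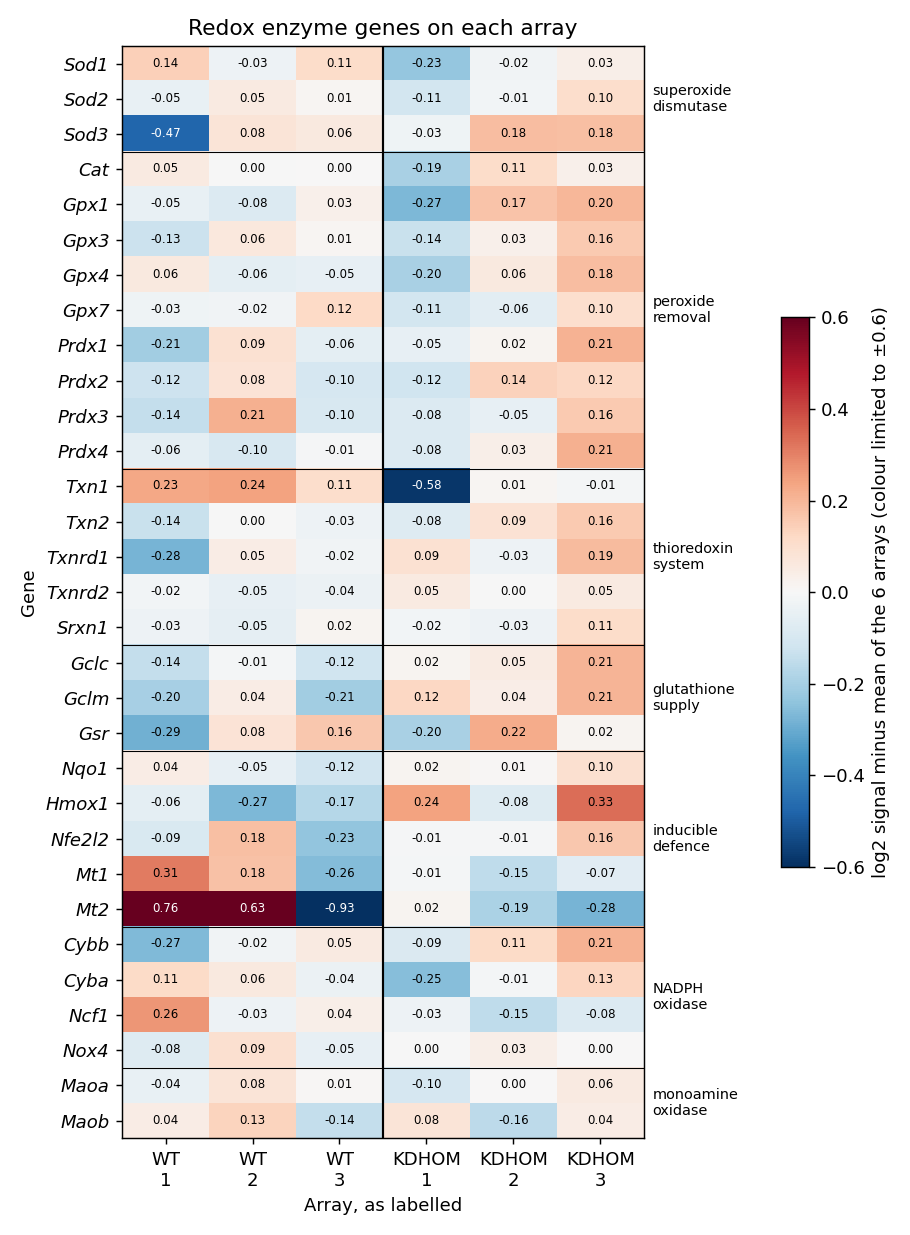
Log2 signal of each gene (rows, by role) on each array (columns, as labelled) minus the gene's mean over the 6 arrays, in colour and digits. Mt2 runs from 0.76 on WT 1 to -0.93 on WT 3, and Txn1 stands at -0.58 on VAChT KDHOM 1.

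Of the superoxide dismutases, none differed at an unadjusted p of 0.05. Sod1, the copper-zinc enzyme of the cytosol, read 12.56, 12.38 and 12.52 on WT 1 to 3 and 12.18, 12.39 and 12.45 on VAChT KDHOM 1 to 3. Its groups overlapped, with VAChT KDHOM 1 the lowest array, and the difference was -0.15 (standard error 0.10). Sod2, the manganese enzyme of the mitochondrial matrix, read 12.86, 12.96 and 12.92 in WT and 12.80, 12.89 and 13.01 in VAChT KDHOM. The difference of Sod2 was -0.01 (95% interval -0.21 to 0.19), an interval within 1.3-fold in either direction. Sod3, the extracellular enzyme, read 7.78, 8.33 and 8.31 in WT and 8.23, 8.44 and 8.44 in VAChT KDHOM. Only WT 1 stood apart at Sod3, below the other 5 arrays, and the difference of 0.23 had a standard error of 0.16.

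None of the 9 peroxide-removing enzymes passed an unadjusted p of 0.05, with differences between -0.05 and 0.12 and standard errors of 0.09 to 0.13. Cat, catalase of the peroxisome, read 12.13, 12.07 and 12.07 in WT and 11.88, 12.18 and 12.10 in VAChT KDHOM, a difference of -0.03 (95% interval -0.26 to 0.19). Gpx1, the main cytosolic glutathione peroxidase, read 9.61, 9.57 and 9.68 in WT and 9.38, 9.83 and 9.85 in VAChT KDHOM. Here VAChT KDHOM 2 and 3 lay above all WT arrays and VAChT KDHOM 1 below all of them. The difference of Gpx1 was 0.07 (standard error 0.13) with all arrays, and 0.22 without VAChT KDHOM 1 (limma adjusted p = 0.519, unadjusted p = 0.0476). Gpx3, the secreted plasma form, and Gpx4, which reduces lipid peroxides in membranes, differed by 0.04 and 0.03, and Gpx7, of the endoplasmic reticulum, by -0.05.

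Among the peroxiredoxins, Prdx3, the mitochondrial one, read 11.98, 12.33 and 12.02 in WT and 12.04, 12.07 and 12.27 in VAChT KDHOM, and differed by 0.02 (standard error 0.12). WT 2 was the highest array at this gene. Prdx4, of the endoplasmic reticulum, differed by 0.11 (standard error 0.10). Prdx1, of the cytosol, has 2 probe sets, and the brighter differed by 0.12 (standard error 0.11) and the dimmer by 0.29 (standard error 0.14, unadjusted p = 0.0711 in limma). The 2 probe sets of Prdx2, also cytosolic, differed by 0.10 (standard error 0.10) and 0.05 (standard error 0.08). For both genes the neighbours of the dimmer probe set by identifier are genes of its own chromosome, 4 for Prdx1 and 8 for Prdx2, whereas those of the brighter lie on chromosomes 16 and 1, so which locus the brighter sets interrogate is uncertain. The 2 probe sets of Gpx4 differed by 0.03 each. Their neighbours by identifier are different genes, though all on its own chromosome 10, so whether both sets interrogate the same locus is uncertain too.

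Red blood cells are rich in Prdx2, Cat and Gpx1, so erythroid markers were set beside them. Alas2, of haem synthesis in erythroid cells, read 8.65, 9.18 and 9.31 in WT and 8.89, 9.83 and 10.03 in VAChT KDHOM, a difference of 0.54 (standard error 0.31). The other markers lay on the other side of 0, Slc4a1, the anion exchanger of the red cell membrane, at -0.26 and Epb42, of its skeleton, at -0.20. The summed signal of the 3 erythroid markers that could be read, which follows Alas2 as the brightest, ran from 9.35 to 9.73 in WT and from 9.30 to 10.28 in VAChT KDHOM, while their median difference was -0.20. Of the 3, Epb42 was close to background and none passed an unadjusted p of 0.05, and their part in the values of Gpx1 was not tested.

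In the thioredoxin system, Txn1, the cytosolic thioredoxin that reduces protein disulfides and feeds the peroxiredoxins, read lower on the arrays labelled VAChT KDHOM. It read 13.28, 13.29 and 13.16 on WT 1 to 3 and 12.47, 13.07 and 13.04 on VAChT KDHOM 1 to 3. All VAChT KDHOM arrays lay below all WT arrays, and VAChT KDHOM 1 lay far below the rest. The mean was 13.25 ± 0.07 in WT and 12.86 ± 0.34 in VAChT KDHOM (SD, n = 3 arrays each), which makes -0.38 (standard error 0.16, limma adjusted p = 0.422, unadjusted p = 0.048). On VAChT KDHOM 1, Txn1 read 0.70 below the mean of the other arrays (-0.70). All probe sets between 13 and 14 read -0.34 at the median on that array, a smaller shift. Without VAChT KDHOM 1 the difference of Txn1 was -0.19 (unadjusted p = 0.0827 in limma), and with both arrays numbered 2 left out it was -0.46 (unadjusted p = 0.0643). After a further quantile normalization it was -0.34 (unadjusted p = 0.0122 in limma), and with median centring -0.32 (unadjusted p = 0.0885). The unadjusted p was also above 0.05 without WT 1, WT 2 or WT 3 (0.064 to 0.108).

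Txnip, the thioredoxin-interacting protein that binds and inhibits thioredoxin, is no gene of the list but showed a like order of arrays. It read 12.73, 12.44 and 12.41 in WT and 11.79, 12.41 and 12.14 in VAChT KDHOM, with VAChT KDHOM 1 again the lowest. The difference of Txnip was -0.41 (standard error 0.17, limma adjusted p = 0.416) and -0.60 with both arrays numbered 2 left out (unadjusted p = 0.0159). Without VAChT KDHOM 1 it was -0.25 (unadjusted p = 0.125 in limma).

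The other genes of the thioredoxin system lay above 0, by 0.04 to 0.17. Txnrd1, the cytosolic thioredoxin reductase, read 8.36, 8.68 and 8.61 in WT and 8.73, 8.60 and 8.82 in VAChT KDHOM, a difference of 0.17 (standard error 0.11). The groups overlapped, and with both arrays numbered 2 left out they did not, at 0.29 (unadjusted p = 0.0848 in limma). Txnrd2, the mitochondrial reductase, read 7.99, 7.96 and 7.97 in WT and 8.059, 8.003 and 8.062 in VAChT KDHOM. Its groups did not overlap, but the difference of 0.07 was no larger than its standard error of 0.07. Txn2, mitochondrial thioredoxin, differed by 0.11 and Srxn1, which repairs overoxidised peroxiredoxins, by 0.04.

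**Figure D4:**
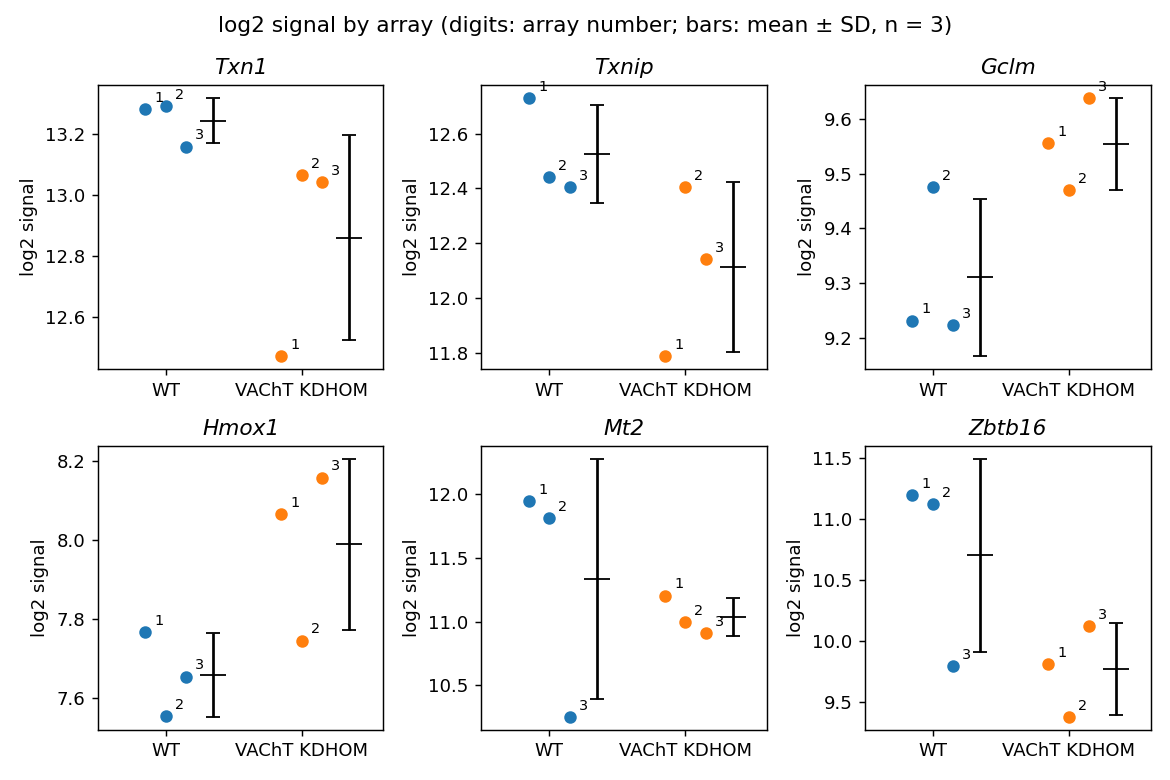
Log2 signal of 6 genes on each array (points, numbered as labelled), with mean ± SD (n = 3 arrays) beside them, on axes that do not start at 0. Txn1 is separated between groups with VAChT KDHOM 1 far below the rest, and WT 3 lies apart from WT 1 and 2 at Mt2 and Zbtb16.

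Of the genes of glutathione synthesis, Gclm alone passed an unadjusted p of 0.05. Gclm, the modifier subunit of glutamate-cysteine ligase, which sets the rate of glutathione synthesis, read 9.23, 9.48 and 9.22 in WT and 9.56, 9.47 and 9.64 in VAChT KDHOM. WT 2 and VAChT KDHOM 2 lay together between the rest. The mean was 9.31 ± 0.14 in WT and 9.55 ± 0.08 in VAChT KDHOM (SD, n = 3 arrays each). Gclm thus read 0.24 higher (standard error 0.10, limma adjusted p = 0.416, unadjusted p = 0.0417). With both arrays numbered 2 left out the groups did not overlap and the difference was 0.37 (unadjusted p = 0.021 in limma). The unadjusted p was above 0.05 without WT 1, WT 3, VAChT KDHOM 1 or VAChT KDHOM 3 (0.0869 to 0.125).

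Gclc, the catalytic subunit of the same enzyme, read 8.80, 8.92 and 8.82 in WT and 8.95, 8.99 and 9.14 in VAChT KDHOM. The groups did not overlap, and the difference was 0.18 (standard error 0.09, limma adjusted p = 0.449, unadjusted p = 0.0722). Gss, glutathione synthetase, which completes the synthesis and is no gene of the list, differed by 0.07 (standard error 0.10) with overlapping groups. Gsr, glutathione reductase, which recycles oxidised glutathione, read 8.46, 8.83 and 8.91 in WT and 8.55, 8.97 and 8.76 in VAChT KDHOM, a difference of 0.03 (95% interval -0.33 to 0.39).

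Hmox1, haem oxygenase 1, which degrades haem and is induced by many stresses, had the largest difference above 0. It read 7.77, 7.56 and 7.66 on WT 1 to 3 and 8.07, 7.75 and 8.16 on VAChT KDHOM 1 to 3. VAChT KDHOM 2 lay just below WT 1, and the other VAChT KDHOM arrays lay above all WT arrays. The mean was 7.66 ± 0.11 in WT and 7.99 ± 0.22 in VAChT KDHOM (SD, n = 3 arrays each). Hmox1 thus read 0.33 higher (standard error 0.12, limma adjusted p = 0.409, unadjusted p = 0.0306). With both arrays numbered 2 left out it was 0.40 (unadjusted p = 0.0177 in limma). The unadjusted p was above 0.05 without WT 2, WT 3, VAChT KDHOM 1 or VAChT KDHOM 3 (0.0671 to 0.0993). Nqo1, a quinone reductase, differed by 0.08 (standard error 0.08), and Nfe2l2, which encodes NRF2, by 0.10 (standard error 0.12) with WT 2 the highest array.

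Gclc, Gclm, Txnrd1, Srxn1, Nqo1, Hmox1 and Prdx1 are textbook targets of NRF2. They were grouped after their values were seen, so the group has no test. Other listed genes that are also counted as NRF2 targets lay on both sides of 0. Among them were Txn1 (-0.38), Fth1 (-0.03), Gsr (0.03) and Ftl1 (0.33), which are not in the group of 7. All 7 had a difference above 0 (0.04 to 0.33, median 0.17). They also did after a further quantile normalization, with median centring and with both arrays numbered 2 left out. The group was made with these values known and the settings reuse the same arrays, so these counts do not test it. Only 6 of 7 lay above 0 without VAChT KDHOM 3, the array on which all 7 were highest. At the median of all probe sets, that array read 0.05 above the others for signals between 7 and 9, the class of Txnrd1, Srxn1, Gclc and Hmox1, 0.11 for signals between 9 and 11, the class of Gclm and Nqo1, and 0.09 between 11 and 12, the class of Prdx1. The median differences between groups in these classes were 0.02, 0.06 and 0.02. With both arrays numbered 2 left out, 2 of the 31 genes passed an unadjusted p of 0.05, Hmox1 and Gclm, both higher, against 10.6% of all probe sets (4.46% higher and 6.16% lower). The groups then did not overlap at 12 of the 31 genes (38.7%), against 46.5% of all probe sets.

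Promoter windows of RefSeq (GRCm38.p6, 250 bases before to 50 after a start) were found for 26 of the 31 genes and searched on both strands for TGACNNNGC, the core of the antioxidant response element that NRF2 binds. It was in a window of 7 genes (26.9%), Gclm, Txnrd1, Prdx1, Srxn1, Nfe2l2, Sod1 and Mt2, and in 12.4% of all 32851 windows. The first share counts genes with a match in any window and the second counts single windows, so they are not like for like. Txnrd1 and Gpx4 have several windows each. The matches before the start in 3 NRF2 targets are shown so that the letters can be compared, and of the 3 genes only Gclm passed an unadjusted p of 0.05. The match is in capitals and lies on the opposite strand, so that it is printed as its reverse complement. They come from chr3:122245398-122245456 for Gclm, chr10:82859089-82859147 for Txnrd1 and chr4:116685441-116685499 for Prdx1, all 3 on the plus strand. Txnrd1 is annotated from base 82833951, so its stretch precedes a later start and lies within the annotated gene. The match in Prdx1 overlaps TGAGTCA, the letters of an AP-1 site. A match is a description of the letters, and binding was not measured.
Gclm: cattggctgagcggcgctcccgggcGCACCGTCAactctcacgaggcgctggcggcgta
Txnrd1: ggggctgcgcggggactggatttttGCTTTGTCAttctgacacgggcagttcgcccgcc
Prdx1: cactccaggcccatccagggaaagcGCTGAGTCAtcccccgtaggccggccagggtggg

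Mt2 had the widest spread between arrays of the 31 genes, and its groups and those of Mt1 overlapped. Metallothioneins are small cysteine-rich proteins that bind zinc and copper, scavenge radicals and are induced by metals and glucocorticoids. Mt2 read 11.94, 11.81 and 10.25 on WT 1 to 3 and 11.204, 10.998 and 10.909 on VAChT KDHOM 1 to 3. WT 1 and WT 2 lay above and WT 3 below all VAChT KDHOM arrays. The mean was 11.34 ± 0.94 in WT and 11.04 ± 0.15 in VAChT KDHOM (SD, n = 3 arrays each), which makes -0.30 (standard error 0.41, limma adjusted p = 0.760). Mt1 kept nearly the same order over a narrower range, at 11.58, 11.45 and 11.01 in WT and 11.26, 11.12 and 11.20 in VAChT KDHOM, and differed by -0.15 (standard error 0.15). The array WT 3 decided these values. Without it Mt2 differed by -0.84 (limma adjusted p = 0.344, unadjusted p = 0.000297) and Mt1 by -0.32 (unadjusted p = 0.0157).

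Genes that respond to glucocorticoids stood in a like order in WT. Zbtb16, a zinc finger factor, read 11.19, 11.12 and 9.79 in WT and 9.81, 9.38 and 10.12 in VAChT KDHOM, a difference of -0.93 (standard error 0.38, limma unadjusted p = 0.0415), and -0.53 with both arrays numbered 2 left out (unadjusted p = 0.267). Fkbp5, a co-chaperone of the glucocorticoid receptor, read 8.02, 8.46 and 7.42 in WT and 8.11, 7.49 and 7.73 in VAChT KDHOM. The summed signal of the 5 such genes that could be read was 12.19, 12.24 and 11.31 in WT and 11.66, 11.41 and 11.66 in VAChT KDHOM, with 1 of the 5, Zbtb16, at an unadjusted p of 0.05. WT 3 was thus the lowest array for Mt1, Mt2, Fkbp5 and the sum, and the part of these genes in the metallothionein values was not tested.

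The windows of both metallothionein genes are rich in the metal response element core, spelled TGCACNC or TGCGCNC and searched on both strands, where matches could overlap. The window of Mt2 held 4 matches and that of Mt1 3, as did that of Gclm, while 1.97% of all windows held 3 or more and 25.7% at least 1. The 250 bases before the start are shown because these genes shared an order of arrays, with the matches in capitals, 3 in Mt2 (chr8:94172368-94172617, plus strand) and 1 in Mt1 (chr8:94178839-94179088, plus strand). The other matches lie behind the start. Mt1 is annotated from base 94178883, so its window belongs to a later start and most of its stretch lies within the annotated gene.
Mt2: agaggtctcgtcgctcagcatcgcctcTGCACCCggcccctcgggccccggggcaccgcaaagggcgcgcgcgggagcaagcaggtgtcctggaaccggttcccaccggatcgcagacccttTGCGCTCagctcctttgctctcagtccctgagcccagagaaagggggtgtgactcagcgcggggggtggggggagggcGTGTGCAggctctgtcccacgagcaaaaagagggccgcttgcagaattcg
Mt1: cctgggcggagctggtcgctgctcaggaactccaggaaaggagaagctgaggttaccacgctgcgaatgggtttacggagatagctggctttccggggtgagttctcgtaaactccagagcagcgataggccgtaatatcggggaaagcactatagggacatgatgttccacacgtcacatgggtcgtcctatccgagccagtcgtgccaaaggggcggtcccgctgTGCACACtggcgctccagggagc

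Of the ROS-producing enzymes, no NADPH oxidase gene passed an unadjusted p of 0.05. Cybb, the catalytic subunit NOX2, read 8.36, 8.60 and 8.68 in WT and 8.54, 8.74 and 8.83 in VAChT KDHOM, and the groups overlapped at a difference of 0.16 (standard error 0.12). Cyba, its membrane partner p22phox, read 9.34, 9.29 and 9.19 in WT and 8.97, 9.22 and 9.36 in VAChT KDHOM, a difference of -0.09 (standard error 0.11). Ncf1, the cytosolic organiser p47phox, read 7.73, 7.43 and 7.50 in WT and 7.43, 7.31 and 7.38 in VAChT KDHOM. The groups of Ncf1 did not overlap, but WT 2 and VAChT KDHOM 1 both read 7.43, and they overlapped after a further quantile normalization and with median centring. Its difference was -0.18 (standard error 0.10, limma adjusted p = 0.488), and -0.09 without WT 1. The subunits of the same enzyme thus lay on both sides of 0. Nox4, a constitutively active oxidase, was close to background on all arrays (6.23 to 6.40) and differed by 0.02.

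Cybb, Cyba and Ncf1 are expressed in phagocytes, whose markers were read beside them. The summed signal of the 10 macrophage markers ran from 12.33 to 12.55 in WT and from 12.33 to 12.71 in VAChT KDHOM, with WT 1 and VAChT KDHOM 1 the lowest and VAChT KDHOM 3 the highest, as VAChT KDHOM 3 was for Cybb. None of the 10 passed an unadjusted p of 0.05, and Fcgr1 was close to background. Of the 8 neutrophil markers 7 were close to background, including S100a8, S100a9 and Ly6g, and their sum ran from 8.95 to 9.07 in WT and from 8.76 to 8.97 in VAChT KDHOM. In this list Mmp9 alone passed an unadjusted p of 0.05 (-0.22, standard error 0.08), and not with median centring.

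The monoamine oxidases differed little. Maob read 11.06, 11.15 and 10.87 in WT and 11.09, 10.86 and 11.06 in VAChT KDHOM, a difference of -0.02 (95% interval -0.27 to 0.23). Maoa, which breaks down noradrenaline and serotonin, was close to background (6.38 to 6.56) and differed by -0.03 (95% interval -0.22 to 0.16). At Maob the sign turned with both arrays numbered 2 left out (0.11, unadjusted p = 0.422 in limma).

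The rest of the redox pathway was read from a list of 72 other genes, of which 69 had a probe set. At an unadjusted p of 0.05, 11 of the 69 (15.9%) differed, 2 higher and 9 lower, against 3.93% of all probe sets higher and 7.81% lower. With median centring this list held 5 genes higher and 3 lower, so its balance of directions turned with the scaling, as that of all probe sets did. None passed an adjusted p of 0.05 in limma (0.409 to 0.416 for the 11). Of the 9 lower genes 5 were close to background, namely the glutathione peroxidases Gpx5 (-0.22) and Gpx6 (-0.36), the NADPH oxidases Nox1 (-0.27) and Nox3 (-0.33) and the dual oxidase Duox2 (-0.25). All probe sets with a mean signal between 5 and 7, the class of Gpx6, Nox1, Nox3 and Duox2, had a median difference of -0.11. Gpx5 lay below this class, at a mean of 4.22. The other lower genes were Txnip, Foxo3, Mt3 and Nos1. Of these, Nos1 had a mean of 6.64, just above background and within the same class.

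The groups did not overlap at 12 of the 69 genes (17.4%), against 19.2% of all probe sets. Of these 2 were higher, Glrx and Ucp3, and 10 lower, namely Foxo3, Nos1, Mt3, Noxo1, Gpx5, Gpx6, Nox1, Nox3, Duox2 and Ucp1. Glrx, glutaredoxin, which removes glutathione from proteins, read 9.33, 9.49 and 9.33 in WT and 9.71, 9.58 and 9.73 in VAChT KDHOM, 0.29 as a difference (standard error 0.09, limma adjusted p = 0.409) and 0.39 with both arrays numbered 2 left out. Its unadjusted p in limma stayed between 0.0101 and 0.0391 when each array was left out in turn. Ucp3, a mitochondrial uncoupling protein of muscle, read 9.62, 9.81 and 9.45 in WT and 9.99, 9.96 and 9.84 in VAChT KDHOM, a difference of 0.30 (standard error 0.11). That of Ucp3 rose above 0.05 without WT 1, WT 3, VAChT KDHOM 1 or VAChT KDHOM 2 (0.0571 to 0.0886). Foxo3, a transcription factor that induces Sod2 and Cat, read 9.36, 9.34 and 9.12 in WT and 8.981, 8.998 and 8.942 in VAChT KDHOM, a difference of -0.30 (standard error 0.09), and -0.27 with both arrays numbered 2 left out (unadjusted p = 0.0886 in limma). Sod2 and Cat differed by -0.01 and -0.03, and their link to the values of Foxo3 was not tested.

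Nos1, neuronal nitric oxide synthase, differed by -0.26 (standard error 0.09) and Mt3, a further metallothionein, by -0.25 (standard error 0.09), and with median centring neither passed an unadjusted p of 0.05. Xdh, xanthine oxidoreductase, which makes superoxide and peroxide from hypoxanthine and xanthine, the products of purine breakdown, read 10.16, 10.24 and 9.93 in WT and 10.06, 10.01 and 10.04 in VAChT KDHOM. Its difference was -0.08 (standard error 0.10, limma adjusted p = 0.748) and the groups overlapped. Keap1, the inhibitor of NRF2, differed by -0.06 (standard error 0.08). Nnt, the mitochondrial transhydrogenase that supplies NADPH and is mutated in the C57BL/6J substrain, read 12.27, 12.44 and 12.34 in WT and 12.52, 12.36 and 12.12 in VAChT KDHOM, a difference of -0.02 (standard error 0.12). No array stood apart at Nnt, and where its probes lie relative to that mutation is not known here.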

How the data were processed

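Heart RNA of 3 WT and 3 VAChT KDHOM pools was hybridised to 6 arrays. The authors scanned them and summarised the probes with RMA in Partek, and the deposited values are log2 signals per probe set, normalized across arrays. The genome build behind the probe sets is not given in the sources used here. The values were used without a filter, and groups and numbers follow the labels. Names come from the platform annotation, where it lists 1 symbol for a probe set (21789 of 35556). A gene takes its brightest probe set, and others are given beside it.

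All probe sets were fitted with lmFit and eBayes of limma 3.58.1 (R 4.3.3), with Benjamini-Hochberg adjustment over all of them. Thresholds were p of 0.05 and 1.3-fold, as in the study. Close to background means a mean at or below the 95th percentile of 1034 olfactory receptor probe sets (6.50). With 3 arrays against 3, p = 0.1 is the smallest an exact permutation test allows, and the number of arrays limits the precision. The labels do not say whether pools share animals, so p-values measure the spread between pools. The labels name no array batch. The procedure was tested on simulated data.

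Alternatives were a further quantile normalization, median centring, a filter on dim probe sets, the ANOVA of the methods, eBayes with trend and robust, array weights, a replicate block, means over a gene's probe sets, and arrays left out. Members, lists and alternatives were chosen with earlier results of these data known. Named were all members, other pathway genes and markers at p of 0.05 or with the 3 largest differences, and Xdh, Nnt, Keap1 and Txnip for their role.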

Additional observations from a re-analysis of the deposited data

How the results depend on the processing

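The count of genes at an unadjusted p of 0.05, 3 of 31, was 1 with the ANOVA of the study's methods and ran from 1 (without WT 1, WT 2, VAChT KDHOM 1 or VAChT KDHOM 3) to 3 with 1 array left out. At both thresholds it was 1, and 0 after a further quantile normalization or with the ANOVA, and from 0 (without WT 2 or VAChT KDHOM 1) to 2 (without VAChT KDHOM 2) with 1 array left out. The 4 genes without overlap became 12 with both arrays numbered 2 left out and 5 (without VAChT KDHOM 3) to 11 (without VAChT KDHOM 1) with 1 array left out. Of all 35556 probe sets 6809 had no overlap, and 16517 with both arrays numbered 2 left out. The count was 9174 without VAChT KDHOM 3 and 11100 without VAChT KDHOM 1, so the rise was general. Of the other redox genes 11 passed, 7 with the ANOVA, and 5 (without WT 1) to 12 with 1 array left out, with 6 without VAChT KDHOM 3. Of all probe sets 4174 passed an unadjusted p of 0.05, 2160 without WT 1 and 2357 without VAChT KDHOM 3, and 1348 passed both thresholds, 587 with the ANOVA and 2800 with both arrays numbered 2 left out. With 1 array left out the median difference ran from -0.001 (without VAChT KDHOM 3) to 0.091 (without VAChT KDHOM 1), and it was 0.102 with median centring. The deviations of same-numbered arrays had correlations of 0.057, -0.125 and 0.133. Differently numbered arrays gave -0.205 to 0.175, so these values cannot decide whether the numbers pair the arrays. With the replicate number as a block 1 gene (Hmox1) passed an unadjusted p of 0.05 and 0 passed both thresholds. Of 277 values of single genes under settings other than leaving out 1 array, 247 kept direction and side of the threshold and 19 turned in sign, all in genes whose difference was at most 0.07 in size, and the cause was not tested. After a further quantile normalization these were Sod2 (0.024), Gpx4 (-0.002), Gpx7 (0.012), Gsr (-0.025) and Maoa (0.053). With median centring they were Sod2 (0.054), Cat (0.032), Gpx7 (0.019), Maoa (0.036) and Maob (0.044). With array weights they were Gpx3 (-0.020), Prdx3 (-0.067), Gsr (-0.021) and Nox4 (-0.001). With both arrays numbered 2 left out they were Sod2 (0.016), Gpx1 (-0.026), Gpx4 (-0.012), Gsr (-0.026) and Maob (0.111). With 1 array left out, 14 genes turned at least once. Their ranges were -0.068 to 0.039 for Sod2, -0.097 to 0.054 for Cat, -0.016 to 0.219 for Gpx1, -0.036 to 0.111 for Gpx3, -0.053 to 0.137 for Gpx4, -0.109 to 0.001 for Gpx7 and -0.056 to 0.128 for Prdx3. For Srxn1 the range was -0.001 to 0.069, for Gsr -0.106 to 0.136, for Mt2 -0.842 to 0.003, for Cyba -0.177 to 0.015, for Nox4 -0.010 to 0.076, for Maoa -0.066 to 0.013 and for Maob -0.101 to 0.050. Where leaving out 1 array leaves 2 against 3, or both numbered 2 leaves 2 against 2, the spread rests on limma's pooling over probe sets. The dim filter removed Nox4 and Maoa.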

Other observations

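Ucp1, the uncoupling protein of brown fat, read 7.41 on WT 1 and 5.79 to 6.07 on the other 5 arrays, and was close to background on average. Its difference was -0.68 (standard error 0.34, limma adjusted p = 0.460). Plin1, a lipid droplet protein of fat cells, was also highest on WT 1, at 7.52 against 6.99 to 7.26 (limma adjusted p = 0.421, unadjusted p = 0.0462, and 0.119 without WT 1), whereas Adipoq, adiponectin, read 5.85 on WT 1 within a range of 5.69 to 6.13. The summed signal of the 5 adipocyte markers was 12.55 on WT 1 and 12.30 to 12.66 on the others. Endothelial and fibroblast markers, 6 and 7 genes, had median differences of 0.03 and -0.01, and none passed an unadjusted p of 0.05.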
